A study of Mus musculus with 9 samples.

Results

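Integrins are the receptors by which cells hold on to the matrix around them, and laminins are sheet-forming matrix proteins that several integrins bind. Here the integrin and laminin chains comprise every gene in the count table with an integrin alpha or beta symbol or a laminin alpha, beta or gamma symbol, leaving out 3 genes of integrin-binding proteins with bp in the symbol. This gave 39 of 22100 genes, 28 on the integrin side and 11 laminin chains. 29 of the 39 had enough counts to be tested, among 13090 tested genes. One of the 28, Itgbl1, codes for a secreted protein that resembles part of a beta chain and forms no receptor pair.

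Polyadenylated RNA was sequenced from mouse cortical astrocytes in culture, glia that feed and regulate neurons, in 3 groups of 3 libraries. A first group was collected at 90 min of exposure to 50 µM noradrenaline, the transmitter released by the locus coeruleus. A second group was exposed for 90 min, given medium without the ligand and collected at 3 days, and the controls were unstimulated cells whose titles carry the same 3 day time. The labels give no strain, genotype or age and do not tell whether replicates are separate cultures, so the p-values rest on a spread between libraries that may be technical. All cells were grown in serum on poly-L-lysine and passed to new dishes before confluence, which limits them as a model of astrocytes in tissue. No control with the 90 min time was analysed here, so at 90 min treatment and collection time cannot be told apart.

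Each integrin receptor joins an alpha and a beta chain. Itgb1 codes for the beta chain with the widest choice of partners, one set of chains forms receptors for the short RGD motif of fibronectin and vitronectin (Itga2b, Itga5, Itga8 and Itgav, and Itgb3, Itgb5, Itgb6 and Itgb8), and other sets bind collagen (Itga1, Itga2, Itga10, Itga11) or laminin (Itga3, Itga6, Itga7 and Itgb4). Inside the cell talins and kindlins switch integrins on and link them to actin at focal adhesions. A laminin is a cross-shaped trimer of an alpha, a beta and a gamma chain, and in the brain laminins lie mainly in the basement membranes around vessels and under the pia, where astrocyte endfeet attach to them.

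Shown are the promoters of the 3 chains whose calls at 90 min held under every alternative tried. That of Itgb1, the most abundant chain, is added, although Itgb1 was not called at 90 min. Each window runs from 250 bases before to 50 bases after the start of a RefSeq transcript (GRCm38.p6), 5′ to 3′ on the gene's strand, and capitals mark a motif that was searched for.

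Itga5, chr15:103366742-103367041 (minus strand): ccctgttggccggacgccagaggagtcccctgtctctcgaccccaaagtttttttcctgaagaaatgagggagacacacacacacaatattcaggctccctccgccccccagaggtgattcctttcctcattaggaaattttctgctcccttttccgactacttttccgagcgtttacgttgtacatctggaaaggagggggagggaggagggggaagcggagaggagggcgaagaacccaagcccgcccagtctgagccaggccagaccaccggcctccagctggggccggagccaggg

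Itgav, chr2:83724147-83724446 (plus strand): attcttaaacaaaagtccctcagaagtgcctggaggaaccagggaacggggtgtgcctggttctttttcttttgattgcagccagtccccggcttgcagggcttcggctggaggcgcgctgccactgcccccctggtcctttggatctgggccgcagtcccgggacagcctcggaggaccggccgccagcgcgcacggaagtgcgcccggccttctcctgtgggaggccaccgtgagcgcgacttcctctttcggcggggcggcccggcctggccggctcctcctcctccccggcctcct

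Lama5, chr2:180225810-180226109 (minus strand): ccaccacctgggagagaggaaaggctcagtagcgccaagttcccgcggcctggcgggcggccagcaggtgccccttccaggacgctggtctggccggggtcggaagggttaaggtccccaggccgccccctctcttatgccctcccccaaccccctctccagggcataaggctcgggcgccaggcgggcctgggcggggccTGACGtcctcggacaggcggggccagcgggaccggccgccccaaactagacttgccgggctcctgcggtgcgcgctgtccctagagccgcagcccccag

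Itgb1, chr8:128685404-128685703 (plus strand): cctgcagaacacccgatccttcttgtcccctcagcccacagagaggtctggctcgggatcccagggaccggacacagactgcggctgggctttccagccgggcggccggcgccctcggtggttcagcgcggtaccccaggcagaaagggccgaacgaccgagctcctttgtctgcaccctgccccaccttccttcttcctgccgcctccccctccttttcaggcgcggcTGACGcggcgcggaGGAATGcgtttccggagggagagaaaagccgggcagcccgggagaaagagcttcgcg

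The motifs were the cyclic AMP response element TGACGTCA, its core TGACG, the AP-1 motif TGANTCA, the NR4A motif AAAGGTCA and the TEAD motif GGAATG, each on both strands, where the first holds the core on each strand. Of the 39 genes 25 matched the promoter table, with 28 windows. The core TGACG occurred at bases 202 to 206 of the Lama5 window and 230 to 234 of the Itgb1 window, the TEAD motif occurred at bases 244 to 249 of the Itgb1 window, and none of these letters occurred in the Itga5 and Itgav windows. Over the chains the core was present in 5 of 28 windows (20.8% of all 32851 windows hold it), the AP-1 motif in 3 (7.81%), the TEAD motif in 3 (14.7%), and the full element and the NR4A motif in 0 (1.79% and 1.51%). The median GC content was 57.7% in the chains' windows and 52.7% in all windows. No entry was matched for Itga6, Itga7, Itgad, Itgae, Itgal, Itgb2, Itgb3, Itgb4, Lama1, Lama3, Lama4, Lamc1 and Lamc3, among others.

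Library totals ranged from 15529158 to 18729980 counts, of which the 39 genes took 0.510% to 0.553%. Replicates of a group differed with a chi-square per degree of freedom of 2.37 to 6.89, and the 2 highest values, 5.27 and 6.89, both involved 90 min library 3, so the chains called at 90 min are also given without it. All 10 astrocyte markers listed were detected well enough to be tested (2 higher and 5 lower at 90 min), with a summed level of 709 to 739 CPM (counts scaled to library size) in controls, 682 to 713 CPM at 90 min and 699 to 711 CPM at 3 d, but the defining filament gene Gfap was at 1.13 ± 0.293 CPM (SD, n = 3). Fibroblast and meningeal markers summed to 2508 to 2789 CPM in controls, 2236 to 2727 CPM at 90 min and 2063 to 2281 CPM at 3 d. Of these 12 markers 11 were tested, with 1 higher at 90 min and 3 lower at 3 d. Over all tested genes 17.5% were higher and 15.5% lower at 90 min, and 0.0382% and 0.0764% at 3 d. Pericyte and smooth muscle markers summed to 736 to 745, 503 to 569 and 668 to 686 CPM (5 of 9 tested, 2 lower at 90 min and 1 at 3 d). Endothelial markers summed to 53.6 to 58.2, 47.7 to 49.5 and 53.5 to 60.7 CPM, with Cldn5 and Tie1 at 0 in every library. Of these 8 markers 3 were tested, with 1 higher (Tek or Flt1) and 1 lower (the other) at 90 min and 0 called at 3 d. Oligodendrocyte lineage markers summed to 82.6 to 88.9, 88.0 to 96.6 and 86.3 to 89.7 CPM (Olig1 and Olig2 at 0, 4 of 8 tested, Mbp higher at 90 min). Neuron markers summed to 138 to 139, 138 to 156 and 130 to 145 CPM (3 of 7 tested, 0 called at 90 min). Pdgfra is counted in both the fibroblast and the oligodendrocyte sums. In bulk RNA fewer cells of a type and less RNA per cell cannot be told apart, and the part of these other cells in the results below was not tested.

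At the mRNA level Itgb1 was the most abundant integrin chain, followed by the RGD receptor chains Itgb5 and Itgav. Protein and the pairing of chains were not measured. Levels of different genes are compared as CPM per kilobase of the longest coding transcript in GENCODE M21. It was made for an older genome build than the mm39 of the authors, whose annotation release is not stated. On that scale Itgb1 led with 476 ± 25.8 in controls (SD, n = 3), followed by Itgb5, a vitronectin receptor chain, at 125 ± 3.48, and Itgav, its alpha partner, at 105 ± 4.40. Itga3, a laminin receptor chain, stood at 37.5 ± 1.021, Itgb8, whose receptor with Itgav releases TGF-beta from its latent form, at 30.2 ± 1.05, and the collagen receptor chain Itga1 at 29.6 ± 0.560. The means of Itgb8 and Itga1 differed by less than the SD of Itgb8, and with exon-union lengths Itga1 came after Itgbl1 (19.9 ± 1.09 on the main length). Itga5, the fibronectin receptor chain, had 17.99 ± 1.21 and Itga6, a laminin receptor chain, 15.5 ± 0.769. The remaining tested integrin chains ranged from 0.122 (Itgal) to 8.63 (Itgb4).

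Among the beta chains, Itgb1 accounted for 74.1% ± 0.784 of the summed level per kilobase in controls, Itgb5 for 19.4% ± 0.675 and Itgb8 for 4.71% ± 0.111. Itgav accounted for 48.2% ± 0.546 of the alpha chains, Itga3 for 17.2% ± 0.408 and Itga1 for 13.6% ± 0.528. Itgb1 thus held most of the beta chain level, and Itgav was the most abundant alpha chain, below the other alpha chains together.

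The chains of leukocyte and microglial receptors were almost absent. Itgax, Itgad and Itgb2l were at 0 counts in all 9 libraries, which allows up to 0.158 to 0.190 CPM per library (3 counts, counting error only). Itgam, the complement receptor chain that marks microglia, had 1 count in 1 library of the 90 min group. Itgb2, the shared beta chain of these receptors, was at 2.48, 2.79 and 2.97 CPM in controls, and Itgal at 0.594, 0.823 and 0.495 CPM. Of the 12 microglia and macrophage markers 2 could be tested, P2ry12, C1qa, C1qb and Tyrobp were at 0 everywhere, and the list summed to 7.66 to 8.80 CPM in controls, 7.75 to 10.9 CPM at 90 min and 6.41 to 8.11 CPM at 3 d. The epithelial chain Itgb6 had at most 2 counts in a library.

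Among laminin chains Lamb1 had the highest level per kilobase, 63.0 ± 2.20 in controls, then Lamb2, a beta chain typical of vessel and synapse laminins, at 42.2 ± 1.15 and Lamc1, the usual gamma chain, at 35.96 ± 2.27. With exon-union lengths Lamb2 came first and Lamb1 second. The alpha chains stood at 17.2 ± 1.04 for Lama5, 10.9 ± 0.0524 for Lama4, the chain of vessel wall laminins, and 8.41 ± 0.348 for Lama2, the chain of muscle, nerve and astrocyte laminins. Lamc1 made up 99.0% ± 0.117 of the gamma chains, while Lama3, a chain of skin-type laminin, reached only 0.169 ± 0.0362 on the per-kilobase scale. Lama1, an early embryonic and pial laminin chain, was at 0 counts in all 9 libraries, and Lamb3 and Lamc3 had at most 6 and 5 counts in a library.

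**Figure D1:**
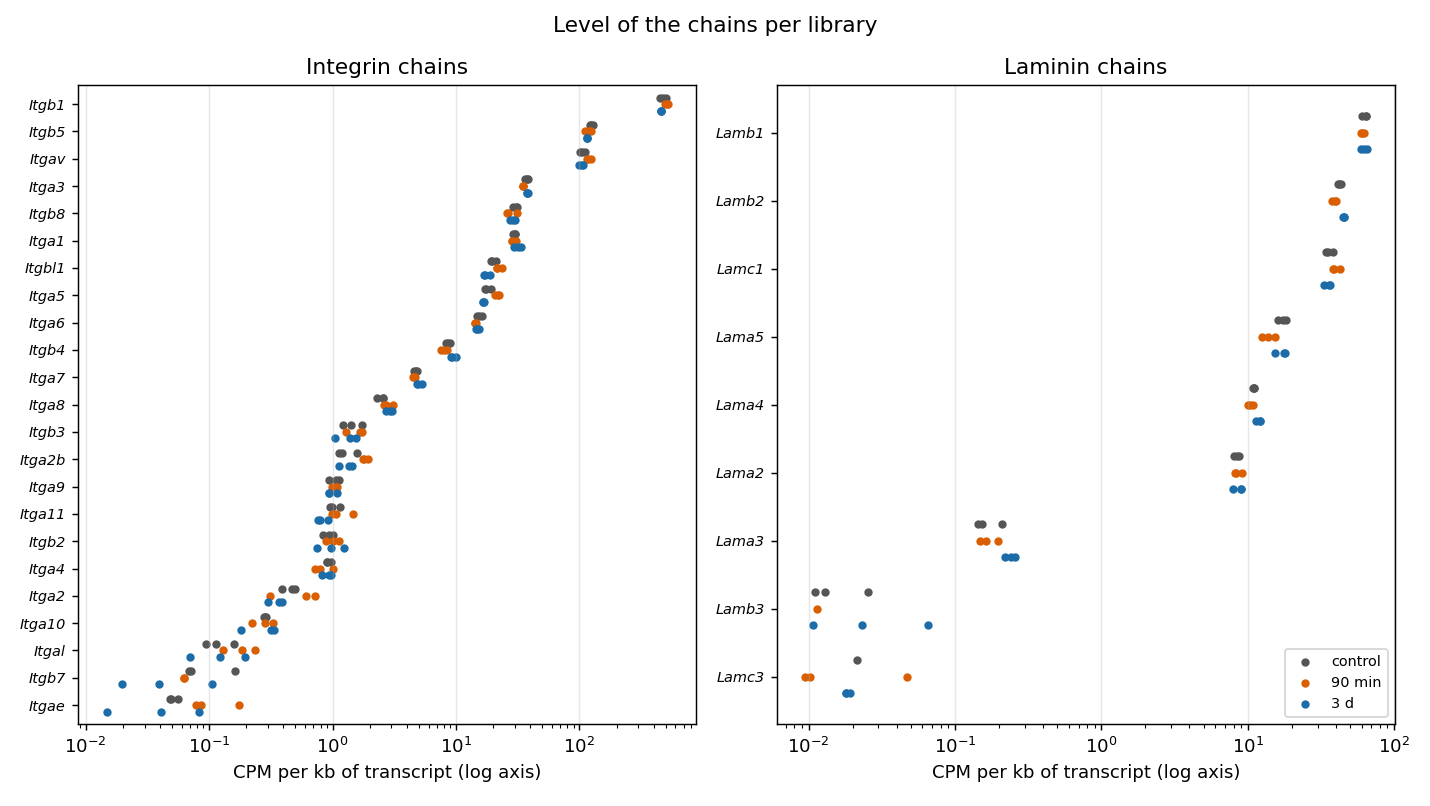
Level of the integrin and laminin chains in each of the 9 libraries, as CPM per kilobase of transcript on a log axis, by group (points are libraries). Chains with under 10 counts over all libraries (Itgam, Itgax, Itgad, Itgb2l, Itgb6 and Lama1) and single libraries at 0 are not drawn. Itgb1 stands above all others, and the groups lie close together against the range between chains.

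At the end of the 90 min exposure 3 integrin chains of RGD receptors, Itgbl1 and the laminin chain Lamc1 were higher, and the laminin chains Lama5 and Lamb2 were lower, all by modest amounts. 7 of 29 tested chains were called at an edgeR adjusted p below 0.05 over all genes, 24.1% against a background of 33.0% of all tested genes. 5 were higher (17.2%, background 17.5%) and 2 lower (6.90%, background 15.5%). The median log2 fold change was 0.0036 over the 29 chains and −0.00084 over all tested genes, and their median size without sign was 0.11 and 0.14. Libraries of the 2 groups did not overlap for 9 of the 29 chains, against a background of 43.5% of all genes, 5 above (background 22.3%) and 4 below (background 21.2%).

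Among the 7 tested RGD receptor chains, counted without Itgb1, 3 rose and 0 fell (background 17.5% higher and 15.5% lower). Itga5 (Entrez 16402), which pairs with Itgb1 as the main fibronectin receptor, was at 76.7, 74.9 and 84.8 CPM in controls, at 90.2, 95.9 and 97.9 CPM at 90 min and at 72.9, 73.4 and 72.3 CPM at 3 d. All 3 libraries at 90 min lay above all controls. The log2 fold change at 90 min was 0.26 (1.20-fold, SE 0.05, edgeR adjusted p = 0.000529).

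Itgav (Entrez 16410), whose receptors bind vitronectin and fibronectin and release TGF-beta, was at 740.4, 713 and 775 CPM in controls, at 821, 819.5 and 875 CPM at 90 min and at 741, 756 and 697 CPM at 3 d. Again the 90 min libraries lay above every control, with no overlap. The log2 fold change was 0.17 (1.13-fold, SE 0.04, edgeR adjusted p = 0.00491). For Itga5 and Itgav the call held in each of the 15 alternative fits, where log2 values ranged from 0.23 to 0.32 and from 0.14 to 0.21, and without 90 min library 3 they were 0.24 and 0.14.

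Itga2b (Entrez 16399), the alpha chain of the platelet fibrinogen receptor, had the highest called change at a low level. It had 72, 85 and 66 counts in controls (3.89, 5.38 and 4.08 CPM), 111, 109 and 110 counts at 90 min (6.21, 6.06 and 6.61 CPM) and 94, 82 and 73 counts at 3 d (4.94, 4.65 and 3.87 CPM). The 90 min libraries lay above all others. Its log2 fold change was 0.50 (1.42-fold, SE 0.15, edgeR adjusted p = 0.0140), which missed the threshold when control 1 (0.41, adjusted p = 0.0776) or control 3 (0.45, 0.0586) was left out. Without 90 min library 3 the value was 0.47.

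The other RGD receptor chains were not called. Itga8, whose receptor binds nephronectin, was at 14.8, 13.4 and 14.96 CPM in controls and at 15.2, 15.9 and 17.8 CPM at 90 min, without overlap (log2 0.18, SE 0.09, edgeR adjusted p = 0.132). Itgb3 had a log2 value of 0.11 (SE 0.16, adjusted p = 0.640). Itgb5 went from 398, 408 and 421 CPM to 405, 390.5 and 362 CPM (log2 −0.08, SE 0.04, adjusted p = 0.154). Thus Itgb3 and Itgb5, beta partners of Itgav, were not called in the direction of Itgav.

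Itgb8 was at 258, 244 and 260.0 CPM in controls and at 220.2, 217 and 260.4 CPM at 90 min, where library 3 sat apart from the other two. Its log2 value was −0.13 (SE 0.06, edgeR adjusted p = 0.104) with all libraries, and it was called without 90 min library 3 (−0.22, adjusted p = 0.000627) and with no filter on low counts (−0.13, 0.0205). At 3 d Itgb8 was at 251, 244 and 232 CPM. Itgb1 (Entrez 16412) was at 1812, 1721 and 1918 CPM in controls and at 1966, 1876 and 1983 CPM at 90 min. The groups overlapped, and the log2 value was 0.10 (1.07-fold, SE 0.04, edgeR adjusted p = 0.0898), which passed the threshold only without control 3 among the left-out libraries (0.14, adjusted p = 0.0258).

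Itgbl1 (Entrez 223272) was at 86.0, 77.4 and 79.8 CPM in controls, at 96.3, 87.4 and 86.8 CPM at 90 min and at 70.2, 76.9 and 68.2 CPM at 3 d. It was higher at 90 min (log2 0.15, SE 0.06, edgeR adjusted p = 0.0488), near the threshold. Without 90 min library 3 the value was 0.18 (adjusted p = 0.0245). Leaving out control 2 (0.12, adjusted p = 0.188), control 3 (0.14, 0.135), 90 min library 1 (0.10, 0.239) and 3 day library 1 (0.15, 0.0586) ended the call, as did RLE size factors (0.0501), a fit of the 2 groups alone (0.0518) and DESeq2 (0.0731).

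None of the 4 collagen receptor chains and 4 laminin receptor chains was called at 90 min by edgeR or DESeq2. Of them 0 and 2 had an unadjusted edgeR p under 0.05, against 41.6% of all tested genes. The 4 collagen receptor chains had log2 values from −0.02 to 0.27, and Itga1 was at 318, 330.1 and 327 CPM in controls and at 309, 312 and 338 CPM at 90 min, which overlap. Itga2, the chain of the platelet collagen receptor, was uneven at 90 min, at 4.36, 2.22 and 5.17 CPM against 3.51, 3.36 and 2.78 CPM, and was called only without 90 min library 2 (0.56, adjusted p = 0.0304). Its value with all libraries was 0.27 (SE 0.24, edgeR adjusted p = 0.418).

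The 4 laminin receptor chains had log2 values from −0.11 to −0.04. Itga3 was at 186, 177 and 184 CPM in controls and at 171.0, 171.1 and 170.7 CPM at 90 min, and Itga6 was at 66.4, 63.6 and 70.2 CPM and at 62.5, 61.2 and 61.8 CPM. Both were below control without overlap, with edgeR adjusted p of 0.0691 (log2 −0.09, SE 0.04) and 0.0922 (log2 −0.11, SE 0.05). Itgb4, the hemidesmosome chain, and Itga7 had values of −0.11 (SE 0.06) and −0.04 (SE 0.07). Itga4 and Itga9, which bind fibronectin, VCAM and tenascin, had −0.14 (SE 0.13) and 0.0036 (SE 0.12), and Itgb2 and Itgal had 0.13 (SE 0.20) and 0.58 (SE 0.40).

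**Figure D2:**
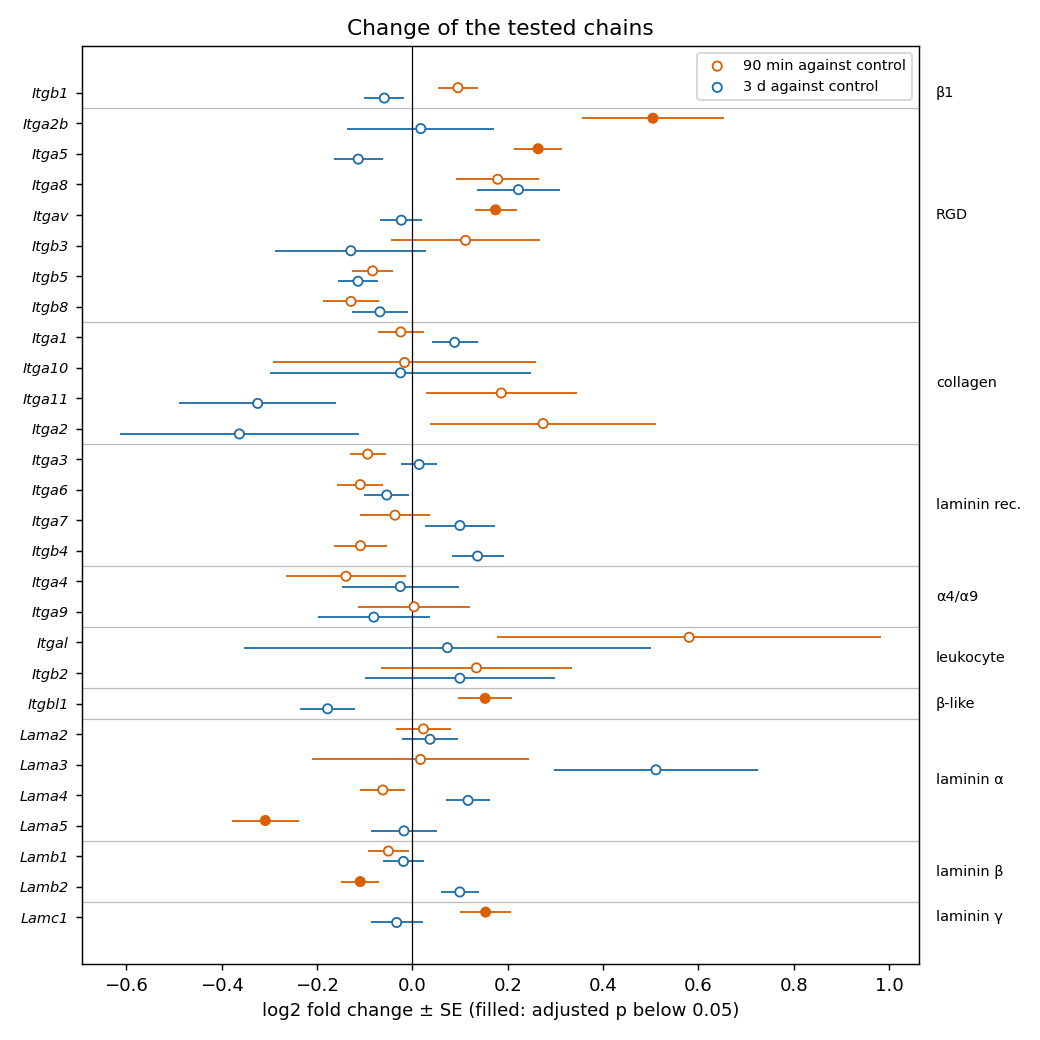
Log2 fold change with its SE (bars) of 28 of the 29 tested chains at 90 min and at 3 d against the same 3 control libraries, grouped by role. Filled points have an edgeR adjusted p below 0.05: 7 at 90 min and 0 at 3 d. "RGD", "collagen" and "laminin rec." are receptor classes.

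On the laminin side 1 of 4 tested alpha chains and 1 of 2 beta chains fell and 1 of 2 gamma chains rose. The background over all tested genes was 15.5% lower and 17.5% higher. Lama5 (Entrez 16776), the alpha chain of widespread basement membrane laminins, was at 184, 207 and 197 CPM in controls, at 157, 143 and 175.5 CPM at 90 min and at 206, 200.3 and 175 CPM at 3 d. The 90 min libraries lay below every control. The log2 fold change was −0.31 (0.808 of control, SE 0.07, edgeR adjusted p = 0.00211), and it was −0.39 without 90 min library 3 and held its call in all 15 alternative fits (−0.39 to −0.24).

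Lamb2 (Entrez 16779) was at 231.5, 244 and 236 CPM in controls, at 211, 222 and 227 CPM at 90 min and at 252, 256 and 255 CPM at 3 d. Its fall at 90 min was small (log2 −0.11, SE 0.04, edgeR adjusted p = 0.0442). The call was lost without any 1 of 8 libraries (adjusted p from 0.0567 to 0.197 without control 1, 2 or 3, 90 min library 1 or 2 or any 3 day library), and the value was −0.13 without 90 min library 3, the one omission that kept it. It was also lost with no filter (0.0527) and in a fit of the 2 groups alone (0.0568).

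Lamc1 (Entrez 226519) was at 261, 268 and 294 CPM in controls, at 290.0, 297 and 327 CPM at 90 min and at 272, 279 and 253 CPM at 3 d. It was higher at 90 min (log2 0.15, SE 0.05, edgeR adjusted p = 0.0372), although the lowest 90 min library lay under the highest control. Leaving out control 1 (0.12, adjusted p = 0.181), control 2 (0.14, 0.122) or 90 min library 3 (0.10, 0.135) ended the call.

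Lamb1, the beta chain with the highest level, was at 369.9, 349.8 and 373 CPM in controls and at 351, 344 and 361 CPM at 90 min, which overlap (log2 −0.05, SE 0.04, edgeR adjusted p = 0.405). Lama2 was at 77.3, 81.3 and 84.0 CPM in controls, at 78.3, 80.2 and 88.0 CPM at 90 min and at 86.1, 86.4 and 76.3 CPM at 3 d, with overlap throughout (log2 0.02 at 90 min, SE 0.06). Lama4 had a log2 value of −0.06 (SE 0.05) at 90 min. The share of Lama5 in the summed alpha chain level per kilobase was 46.8% ± 1.20 in controls, 41.9% ± 1.803 at 90 min and 45.0% ± 1.01 at 3 d (SD, n = 3). Lama2 took 22.9% ± 0.598, 25.8% ± 0.674 and 22.9% ± 0.186, so the order of the alpha chains was the same in each group.

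**Figure D3:**
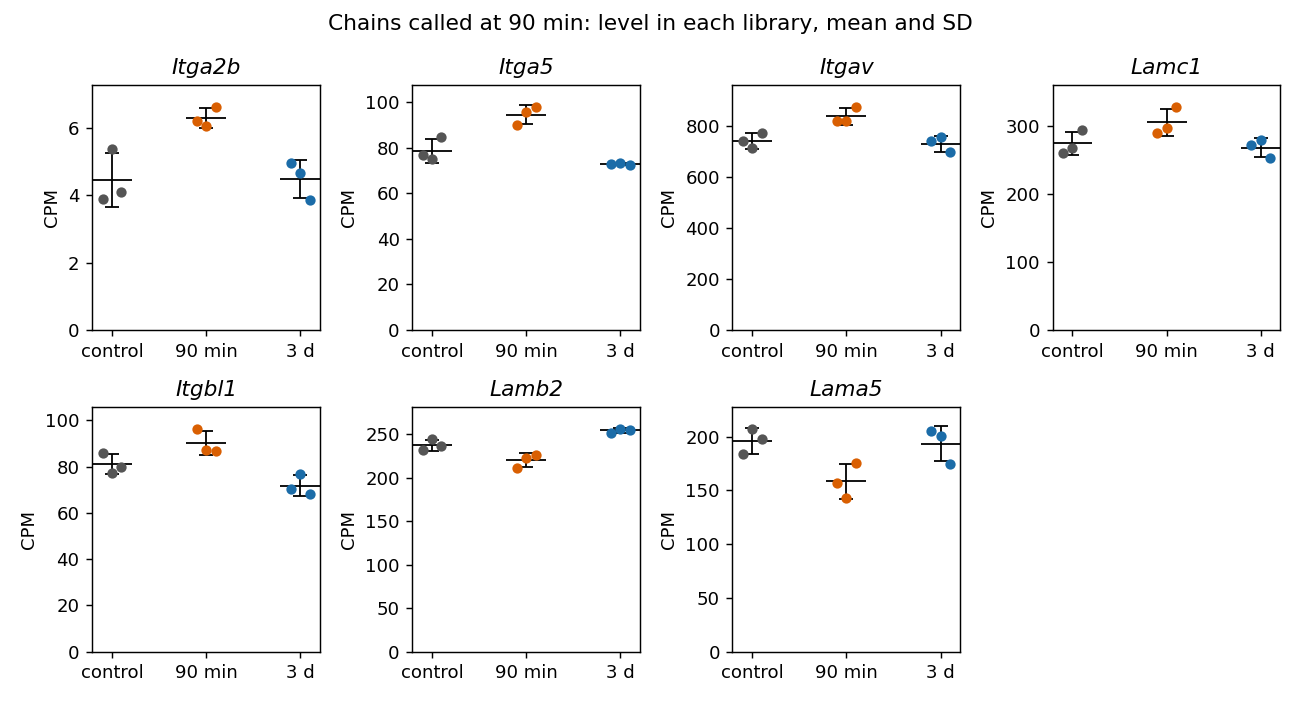
Level in CPM of the 7 chains called at 90 min, in each library of the control, 90 min and 3 d groups, with the mean and SD over 3 libraries (bars). Axes start at 0. The 90 min libraries lie above all controls for Itga2b, Itga5, Itgav and Itgbl1 and below them for Lama5 and Lamb2, and overlap them for Lamc1.

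Several genes that work with these chains had larger changes at 90 min than any called chain. For each list of such genes the background over all tested genes was 17.5% higher and 15.5% lower. Among 14 tested genes of integrin activation 2 rose and 4 fell (median log2 −0.04). The kindlin gene Fermt2, whose product binds integrin beta tails and helps to activate them, was at 191, 178 and 192 CPM in controls and at 405, 397 and 419 CPM at 90 min, with no overlap (log2 1.12, SE 0.04, edgeR adjusted p = 1.87e-13). Tns2, a tensin gene, fell (log2 −0.54, SE 0.05, edgeR adjusted p = 1.19e-07), and Rap1b, a small GTPase gene of integrin activation, rose (0.24, SE 0.04, adjusted p = 8.76e-05). Talin 1 (Tln1) fell slightly (log2 −0.14, SE 0.04, adjusted p = 0.00896; chosen after its value was seen).

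In the focal adhesion list 3 of 34 tested genes rose and 11 fell (median log2 −0.07, background 17.5% higher and 15.5% lower). Kank1, which codes for a scaffold that sits around focal adhesions and binds talin, fell from 116, 125 and 125.0 CPM to 53.5, 51.1 and 51.9 CPM (log2 −1.22, SE 0.05, edgeR adjusted p = 6.46e-13). The kinase gene Src rose (0.43, SE 0.05, adjusted p = 6.54e-07) and Git1, a GTPase regulator gene, fell (−0.43, SE 0.05, adjusted p = 1.95e-06).

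Of 25 tested integrin ligands other than laminins 13 rose and 2 fell (median log2 0.13, background 17.5% higher and 15.5% lower). Tgfb2 and Tgfb3, which code for TGF-beta growth factors and of which Tgfb2 lacks the RGD motif in its latency peptide, rose by log2 0.74 (SE 0.05, edgeR adjusted p = 9.45e-10) and 0.69 (SE 0.04, adjusted p = 2.48e-10). Vcam1, a ligand of the Itga4 receptor, went from 870.0, 875 and 903 CPM to 1202, 1240 and 1174 CPM (log2 0.45, SE 0.04, adjusted p = 2.08e-08). Further integrin ligands, chosen after their values were seen, also rose: Fn1 (fibronectin, log2 0.24, SE 0.08, adjusted p = 0.0311, with overlapping groups and no call by DESeq2), Tnc (tenascin C, 0.26, SE 0.06, 0.00223) and Thbs1 (thrombospondin, 0.32, SE 0.05, 4.35e-05). The 2 that fell were Ccn1 (−0.51, SE 0.08) and Ccn2 (−0.50, SE 0.05), and vitronectin (Vtn) had too few counts to be tested.

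None of the 18 tested genes of laminin's basement membrane partners was called by edgeR or DESeq2 (median log2 0.01, 1 with an unadjusted edgeR p under 0.05, against 41.6% of all tested genes), among them Col4a1 (0.03, SE 0.05, adjusted p = 0.695) and Nid1 (−0.17, SE 0.25, adjusted p = 0.658), the latter at 1.46 to 2.29 CPM in controls. Among 22 tested genes of laminin receptors other than integrins 3 rose and 2 fell (median 0.01, background 17.5% higher and 15.5% lower). The syndecan gene Sdc4 rose (log2 0.46, SE 0.04, adjusted p = 4.12e-08), as did Sdc1 (0.26, SE 0.06, adjusted p = 0.00395), and the sarcospan gene Sspn fell (−0.32, SE 0.05, adjusted p = 1.74e-05). The dystroglycan gene Dag1 had −0.06 (SE 0.04, adjusted p = 0.245). Of 14 tested membrane partners of integrins 4 rose and 1 fell (median 0.02), with the caveolin gene Cav1 at 221, 207 and 218 CPM in controls and 389.7, 428 and 408.5 CPM at 90 min (log2 0.92, SE 0.05, adjusted p = 1.89e-11), and Plaur, the urokinase receptor gene, and Cd44 at 0.70 (SE 0.10, adjusted p = 1.77e-05) and 0.22 (SE 0.04, adjusted p = 0.000202).

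**Figure D4:**
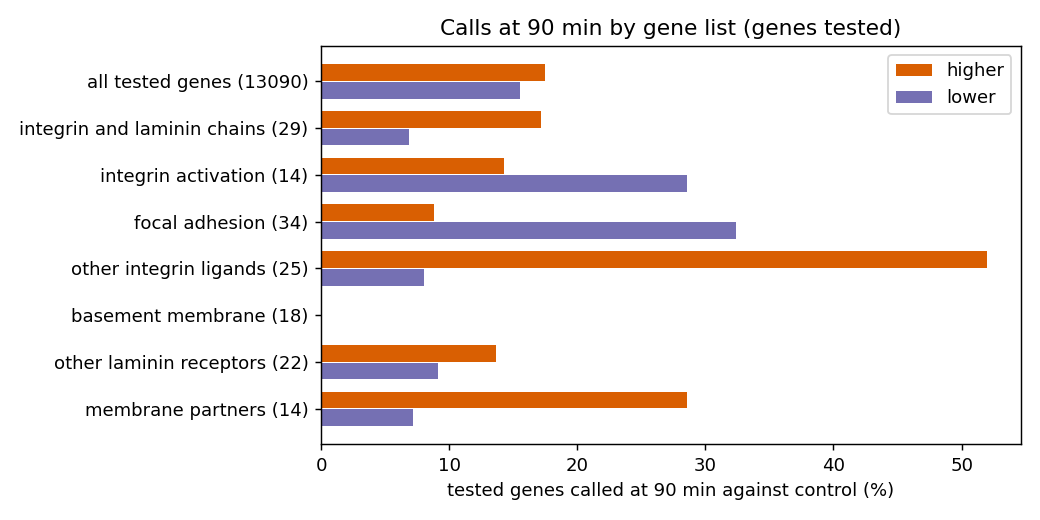
Percent of tested genes called higher or lower at 90 min against control by edgeR, for all tested genes, the integrin and laminin chains and 6 lists of genes that work with them (number tested in brackets). Other integrin ligands had 13 of 25 higher, focal adhesion genes 11 of 34 lower, and basement membrane partners 0 of 18 called. All tested genes were at 17.5% higher and 15.5% lower.

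At 3 days against the same controls 0 of 29 chains were called by edgeR and 0 by DESeq2, where edgeR called 0.115% of all tested genes (0.0382% higher and 0.0764% lower). 8 of the 29 chains had an unadjusted edgeR p under 0.05, a larger share than the background of 9.33% of all tested genes. Of these 5 were higher (background 4.73%) and 3 lower (background 4.6%). Libraries did not overlap for 11 of the 29 chains (37.9%), against a background of 16.1%. Of these 6 lay above (background 8.03%) and 5 below (background 8.11%) the controls. In each of the 6 lists of partner genes 0 were called by edgeR, with 0 to 8 at an unadjusted p under 0.05, and DESeq2 called Sparc and Thbs1.

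For 4 of the 7 chains called at 90 min the 3 day libraries overlapped the controls. Itgav had a log2 value of −0.02 (SE 0.04), Lama5 −0.02 (SE 0.07), Itga2b 0.02 (SE 0.15) and Lamc1 −0.03 (SE 0.05). Itga5 lay below all controls (−0.11, SE 0.05, edgeR adjusted p = 0.515), as did Itgbl1 (−0.18, SE 0.06, adjusted p = 0.317), whereas Lamb2 lay above them (0.10, SE 0.04, adjusted p = 0.441). All libraries of Itga5 and Itgbl1 thus lay above control at 90 min and below it at 3 d, where the test was not passed.

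Other chains whose 3 day libraries did not overlap the controls were Itga8 (log2 0.22, SE 0.09, edgeR adjusted p = 0.425), Itga7 (0.10, SE 0.07), Itgb4 (0.14, SE 0.05), Lama4 (0.12, SE 0.05) and Lama3 (0.51, SE 0.21, adjusted p = 0.470) above, and Itgb5 (−0.11, SE 0.04, adjusted p = 0.403), Itga11 (−0.32, SE 0.16) and Itga2 (−0.36, SE 0.25) below. Lama3 was at 1.51, 2.22 and 1.61 CPM in controls and at 2.31, 2.55 and 2.70 CPM at 3 d, which are 26 to 35 and 44 to 51 counts. Itgb1 was at 1759, 1734 and 1740.0 CPM at 3 d (log2 −0.06, SE 0.04, adjusted p = 0.715). At 3 d Itgb5 was at 381, 375 and 377 CPM and Itga1 at 349.9, 365.5 and 322 CPM. No source used here tells whether the medium of the controls was changed.

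The direct comparison of 3 d with 90 min called 13 of 29 chains, 44.8% against a background of 39.0%, 5 higher at 3 d (background 18.7%) and 8 lower (background 20.4%). Libraries did not overlap for 14 chains (background 47.1%), 7 above (23.3%) and 7 below (23.8%). It shares libraries with both comparisons above and spans the change of medium. In it 6 of 11 tested fibroblast and meningeal markers were lower and 1 higher at 3 d (median log2 −0.24), and 4 of 10 astrocyte markers were higher and 2 lower (median 0.18). Of 5 pericyte and smooth muscle markers 1 was higher and 2 lower, of 3 endothelial markers 1 was higher and 2 lower, and 1 of 4 oligodendrocyte and 1 of 2 microglia markers were lower, with 0 of 3 neuron markers called. The part of these markers' cells in the calls of the chains was not tested. Itga5, Itgav, Itgb1 and Itgbl1 were lower at 3 d, with log2 values of −0.38 (SE 0.05, edgeR adjusted p = 1.12e-05), −0.20 (SE 0.04, 0.00162), −0.15 (SE 0.04, 0.00674) and −0.33 (SE 0.06, 0.000169). For Itgb1 all 3 libraries at 3 d lay below all 3 at 90 min, 1734 to 1759 against 1876 to 1983 CPM. Itga2b (−0.49, SE 0.15, adjusted p = 0.0137) and Lamc1 (−0.19, SE 0.05, 0.0109) were lower as well, and lost the call without 3 day library 3 (adjusted p = 0.0585 and 0.0566).

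Lama5 (log2 0.29, SE 0.07, edgeR adjusted p = 0.00290), Lamb2 (0.21, SE 0.04, 0.000419), Itgb4 (0.25, SE 0.05, 0.00167) and Lama4 (0.18, SE 0.05, 0.00540) were higher at 3 d. Itgb4 was at 62.2, 57.6 and 56.8 CPM at 3 d against 49.5, 52.3 and 47.1 CPM at 90 min, and Lama4 at 72.8, 73.4 and 68.8 CPM against 61.1, 62.7 and 66.2 CPM. Neither pair of groups overlapped. Controls were at 53.9, 55.5 and 51.3 CPM for Itgb4 and at 66.3, 66.2 and 65.7 CPM for Lama4, below all 3 day libraries and overlapping those of 90 min. For Lama5 the 3 day and 90 min libraries overlapped.

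The collagen receptor chains Itga11 (log2 −0.51, SE 0.16, edgeR adjusted p = 0.0179) and Itga2 (−0.64, SE 0.24, adjusted p = 0.0464), both scarce, were lower at 3 d, and Itga3 (0.11, SE 0.04, adjusted p = 0.0318) was higher, at 182, 186 and 184 CPM at 3 d. Itga11 was at 5.31, 4.95 and 7.27 CPM at 90 min and 3.79, 3.91 and 4.56 CPM at 3 d (4.70, 4.94 and 5.75 CPM in controls), and its call was lost without 90 min library 3 (−0.33, adjusted p = 0.107), 3 day library 1 (−0.46, 0.0621) and 3 day library 2 (−0.49, 0.0555). Itga2 was at 2.63, 2.78 and 2.12 CPM at 3 d, overlapping 90 min library 2. It lost its call without any 1 library but 90 min library 2 (adjusted p from 0.0550 to 0.223), with −0.39 without 90 min library 3, and also with DESeq2 (−0.64, 0.0687) and in a fit of the 2 groups alone (−0.64, 0.0735). Itga3 lost it without control 1 (0.0551), 90 min library 1 (0.0748) or 2 (0.0627) and 3 day library 1 (0.0723), 2 (0.114) or 3 (0.0765), with no filter (0.0513) and in a fit of the 2 groups alone (0.0542). Itga1 was not called (0.11, adjusted p = 0.0730) except without 90 min library 3 (0.15, 0.0120) or 3 day library 3 (0.16, 0.0143) or with no filter (0.12, 0.0359), and Itgb8 except without 90 min library 3 (0.15, 0.0101).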

How the data were processed

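The submitters' processing notes name fastp 0.23.4, Salmon 1.8.0 and the build mm39. The authors deposited 1 table of estimated counts per gene, all whole numbers. No source used here states the annotation release, the strand setting or how transcripts were summed, and Salmon shares reads between similar transcripts, so overlapping genes are uncertain. The test was edgeR 4.0.16 (R 4.3.3): filterByExpr (minimum count 10, minimum total 15), TMM, 1 quasi-likelihood fit of all 9 libraries with a coefficient per group, two-sided tests and Benjamini-Hochberg adjustment over the 13090 genes tested, with a call at an adjusted p below 0.05. The SE is the size of the log2 value divided by the square root of F. CPM use TMM-scaled totals of the tested genes. The fit was also run on simulated counts, but the outcome is not reported here and is not used as support. 1 gene with an Entrez number but no symbol (at most 0.000668% of a library) was kept. Alternatives were RLE factors, no filter, a minimum count of 30, DESeq2 1.42.0, a fit of the 2 groups alone, a replicate block and leaving out each library. The genes named from the 6 partner lists were the 3 with the smallest p at 90 min among those called, and other partner genes named were chosen after their values were seen. 1 chain is counted with the others but not reported here by itself. Members and lists were chosen with earlier results of these data known.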

Additional observations from a re-analysis of the deposited data

Results flagged for a closer look

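For 13 chains the differences from the same controls at the 2 times differed from each other by the test of that difference itself (3 d against 90 min, edgeR adjusted p below 0.05). That is 44.8% of the 29 tested chains, against a background of 39.0% of all tested genes. The call held in all 15 alternative fits for 8 of the 13, and was lost in 11 for Itga2 and in 9 for Itga3. The log2 differences were −0.64 for Itga2, −0.51 for Itga11, −0.49 for Itga2b, −0.38 for Itga5, −0.33 for Itgbl1, −0.20 for Itgav, −0.19 for Lamc1 and −0.15 for Itgb1. They were 0.11 for Itga3, 0.18 for Lama4, 0.21 for Lamb2, 0.25 for Itgb4 and 0.29 for Lama5. Of these, Itga11, Itga2, Itga3, Itgb1, Itgb4 and Lama4 were called at neither time against control.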

How the results depend on the processing

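No called chain changed direction under the 15 alternatives. At 90 min, 80 of 105 alternative values of the 7 called chains kept the call (all for Itga5, Itgav and Lama5), and 170 of 195 did for the 13 called between 3 d and 90 min. All 675 alternative values of the 15 partner genes named by the rule kept their side of the threshold. These genes were picked for a small p at 90 min in the same data, so this was largely fixed beforehand. It gives no comparison with the chains. The values include 3 d against control, where none of these genes was called. Called chains at 90 min numbered 4 higher and 1 lower in a fit of the 2 groups alone, and 3 and 1 with the replicate block. With libraries left out in turn they ranged from 3 to 6 higher and 1 to 3 lower, and from 5 to 8 lower between 3 d and 90 min. Over all genes at 3 d the counts higher and lower, 5 and 10, became 109 and 96 with no filter, 39 and 37 in a fit of the 2 groups alone, 27 and 38 with DESeq2, 1 and 2 with the replicate block, and ranged from 0 to 45 and 0 to 38 without single libraries. The cause was not tested. Deviations of same-numbered libraries correlated at −0.15 to 0.05, and those of differently numbered libraries at −0.16 to 0.18. With 3 libraries per group these values cannot decide whether the replicate numbers mark a pairing. With that block Itgbl1 (adjusted p = 0.0576), Lamb2 (0.0654) and Lamc1 (0.0560) lost their calls at 90 min, as did Itga2 (0.0673) and Itga3 (0.0644) between 3 d and 90 min. Changes of chains with under about 10 CPM rest on few counts.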
